A study of Arabidopsis thaliana with 18 samples.

Results

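The genes described here are those that both test compounds raised strongly in Arabidopsis root cultures, after 4 h and still after 24 h. They are 92 probe sets of the 22746 on the ATH1 array that are not Affymetrix controls, where a probe set is a group of short probes that stands for a gene. A probe set was taken when the mean log2 signal of a compound exceeded that of acetone at the same time by 2 or more in all 4 cases and when all 4 treated means were 6 or more. The cases are CMP and fenclorim, each at 24 h and at 4 h. Of the 22746 probe sets, 97 met this rule, and 5 with symbols of UDP-glycosyltransferases were left out: UGT73B1, UGT73B4, UGT73B5, UGT87A2 and a probe set shared by UGT73B2 and UGT73B3. The rule also leaves out symbols starting GSTU, CML, WRKY or ATG, but no probe set that met it bore one. Among the 92 members, 46 carry 1 gene in the annotation used, 1 probe set is shared by AT2G32190 and AT2G32210, and 45 are not listed there and stay unnamed. The members were chosen by their signals against acetone, so their differences from acetone are a description and carry no test.

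The plants were wild type Col-0, grown as root cultures in the dark in B5 medium at 25 °C and used at an age of 14 days. There were 6 groups of 3 arrays: CMP at 24 h, fenclorim at 24 h, acetone at 24 h, CMP at 4 h, fenclorim at 4 h and acetone at 4 h, 18 arrays in all. Fenclorim is a phenylpyrimidine safener used in rice, acetone is the solvent control, and the labels neither expand the code name CMP nor give a dose of either compound. Differences between the compounds can therefore not be told apart from differences in dose. Replicates are numbered in the labels, which do not say whether each came from its own culture. The p-values cover only the scatter from array to array, part or all of which may be technical.

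Safeners are chemicals that protect a cereal crop from a herbicide, in large part by raising the enzymes with which plants detoxify foreign compounds. That system works in steps: oxidation or reduction by enzymes such as cytochromes P450 and reductases, conjugation to glutathione or sugar, and export from the cytosol by transporters. In Arabidopsis many of its genes respond also to reactive electrophiles such as oxylipins, through bZIP transcription factors of the TGA class. The named members hold reductases, oxidases and a transporter of kinds known from these steps, together with genes known from defence, from stress of the mitochondria and from protein damage. No tested cytochrome P450 or glutathione transferase with a name was a member, and the glycosyltransferases that met the rule were left out by symbol. The 45 members that are not listed in the annotation could not be placed in a family. Absence of a family among the named members therefore does not show that the whole set lacks it.

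Array medians over all probe sets were 27.1 to 40.8 signal units, and the compounds' arrays lay below the acetone arrays, while the authors had scaled every array to a common trimmed mean. Centring the arrays on their medians would shift every difference from acetone by 0.27 in CMP and 0.50 in fenclorim at 24 h, and by 0.29 in CMP and 0.34 in fenclorim at 4 h, on the log2 scale. It would shift the difference of CMP from fenclorim by -0.22 at 24 h and -0.05 at 4 h. On the second principal component of the tested probe sets, which held 17.3% of the variance, replicate 2 of fenclorim at 24 h lay at 4.21, away from the other arrays of its group at 72.7 and 75.5. Replicate 3 of fenclorim at 4 h lay at 52.4, against 1.66 and 11.0 in the other arrays of its group, and replicate 2 of CMP at 4 h at 15.9, against -30.4 and -41.2. On this component each of these fenclorim arrays lay nearer to the fenclorim arrays of the other time than to its own. Whether they were exchanged was not tested, and the labels were kept. The annotation names only 2 of 10 root markers. The root hair expansin EXPA7 had array log2 signals of -1.01 to 4.89 and EXPA18 of -0.22 to 6.08. The 40th percentile of the arrays averaged 4.18. All group means of EXPA7 and those of EXPA18 in the compounds lay below it, so these markers could not settle root identity. EXPA7 averaged 2.82 in CMP, 2.59 in fenclorim and 3.5 in acetone at 24 h, and 1.16 in CMP, -0.34 in fenclorim and 3.35 in acetone at 4 h. The leaf gene RCA, which encodes Rubisco activase, was the only 1 of 7 leaf markers that the annotation names. It had log2 signals of 8.48 to 11.4, higher than the median of every array, although the cultures are labelled as roots. Its group means were 8.90 in CMP, 10.7 in fenclorim and 11.3 in acetone at 24 h, and 10.5 in CMP, 10.0 in fenclorim and 11.1 in acetone at 4 h. EXPA18 averaged 3.57 in CMP, 2.51 in fenclorim and 5.30 in acetone at 24 h, and its 4 h means in the compounds lay between 2.51 and 3.57, against 4.96 in acetone. The part of these markers in the results was not tested. In such bulk samples fewer cells of a type and less RNA per cell cannot be told apart.

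Over all members the differences from acetone had a median of 3.48 in CMP and 2.75 in fenclorim at 24 h, and of 3.99 in CMP and 3.74 in fenclorim at 4 h, all on the log2 scale. The lowest differences, set by the rule, were 2.06, 2.02, 2.00 and 2.12 in that order of groups, and the highest were 8.47, 6.75, 10.2 and 9.03. Over all 15261 probe sets tested the medians were -0.13 in CMP and -0.24 in fenclorim at 24 h, and -0.25 in CMP and -0.23 in fenclorim at 4 h. Few probe sets of the array met the rule in a single case: 2.11% with CMP and 1.04% with fenclorim at 24 h, 2.26% with CMP and 1.95% with fenclorim at 4 h, and 0.426% in all 4 cases. All 3 compound arrays lay above all 3 acetone arrays for 92 members with CMP and 91 with fenclorim at 24 h, and for 92 members with each compound at 4 h. On the whole array 19.4% of probe sets did so with CMP and 13.0% with fenclorim at 24 h, and 13.0% with CMP and 12.7% with fenclorim at 4 h. The exception was the germin-like AT1G18980, whose signals at 24 h were 56.3, 199 and 122 in fenclorim and 68.0, 30.9 and 4.66 in acetone. The rule demanded a difference of means of 2 or more in each case. The separation of the members from acetone was thus largely set by their choice and is a description only.

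The smallest of a member's 4 differences was that of fenclorim at 24 h in 54 of the 92 members and that of CMP at 24 h in 26. The largest was that of CMP at 4 h in 38 members and that of fenclorim at 4 h in 33. All 4 differences reached 3 in 26 members, 4 in 8 members and 5 in 4 members, and no member had all 4 at 6 or more. In acetone many members were dim: 15 lay below the 40th percentile of the array on all 6 acetone arrays. For such members the size of a difference depends on how low signals are treated, and values with an offset added to every signal are given below for 2 of them.

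**Figure D1:**
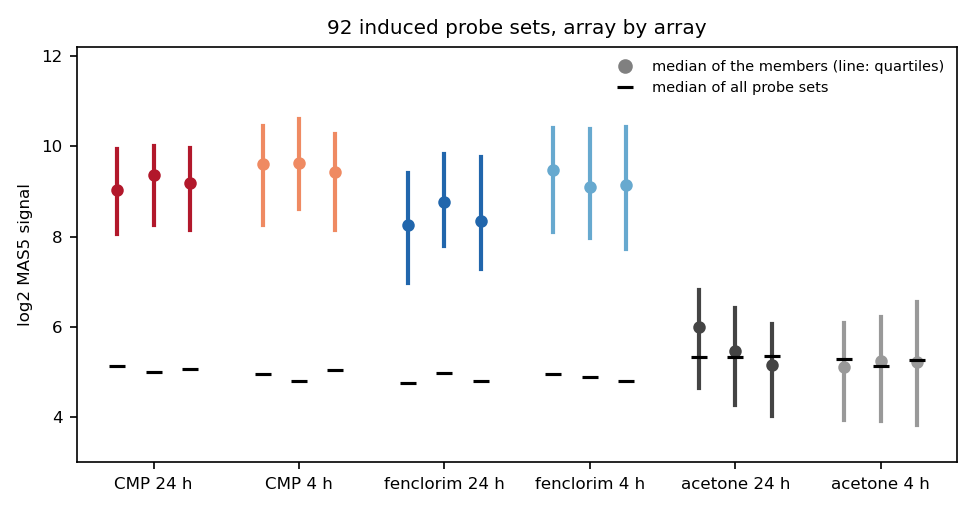
The y axis gives log2 signal and the x axis the 6 groups, with each of the 3 arrays of a group drawn on its own. Points are the median and lines the quartiles over the 92 members, and short bars are the median of all probe sets. The member medians lay between 9.03 and 9.36 in CMP at 24 h, 8.27 and 8.77 in fenclorim at 24 h, 9.43 and 9.63 in CMP at 4 h and 9.11 and 9.47 in fenclorim at 4 h, and acetone lay below all of them, with its highest array median, 6.00, in replicate 1 at 24 h.

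The medians of the members differed between the arrays of a group as well. In fenclorim at 24 h, replicate 2 was the highest array for 53 members, and for 14 of them it exceeded the next array by more than 1 on the log2 scale. In fenclorim at 4 h, replicate 3 was lower than both others by more than 1 for 8 members. In acetone at 24 h, replicate 1 was the highest array for 72 members.

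Among the unnamed members were both probe sets with the largest lowest difference. In the first of them the signals at 24 h were 2071, 2127 and 2058 in CMP, of 69.0, 812 and 406 in fenclorim and of 8.63, 3.70 and 6.37 in acetone. At 4 h they were 751, 943 and 734 in CMP, of 1046, 524 and 445 in fenclorim and of 7.24, 4.38 and 11.3 in acetone. The fenclorim arrays at 24 h ran over a wide range, and CMP arrays were above all of them. For the other unnamed probe set the signals at 24 h were 702, 997 and 908 in CMP, of 55.4, 339.9 and 52.5 in fenclorim and of 7.37, 2.90 and 0.711 in acetone, and at 4 h 754, 625 and 815 in CMP, of 637, 434 and 115 in fenclorim and of 1.07, 1.02 and 0.205 in acetone. Its acetone signals were near the lower end of the scale, and replicates 2 at 24 h and 3 at 4 h stood apart from the other fenclorim arrays. In the following, members are taken up by the role of the gene, for the 46 that have a name.

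Oxidation and reduction was the role of 9 named members. AT1G60750 encodes an aldo-keto reductase, a family that reduces aldehydes and ketones with NADPH. Its signals at 24 h were 142, 121 and 115 in CMP, of 49.0, 125 and 88.6 in fenclorim and of 0.555, 3.11 and 6.09 in acetone. At 4 h the signals were 191, 102 and 201 in CMP, of 274, 191 and 215 in fenclorim and of 4.58, 0.430 and 0.523 in acetone. Every treated array lay above every acetone array, and both compounds overlapped at either time. The log2 differences from acetone were 5.84 in CMP and 5.22 in fenclorim at 24 h, and 7.28 in CMP and 7.79 in fenclorim at 4 h. All 6 acetone arrays were below the 40th percentile, and with 3.80 added to every signal the differences were 4.28 in CMP and 3.68 in fenclorim at 24 h, and 4.92 in CMP and 5.41 in fenclorim at 4 h.

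AT1G60730, a second aldo-keto reductase, lies near AT1G60750 on the chromosome, with 1 gene between them in RefSeq. At 24 h its signals were 521, 628 and 589 in CMP, of 505, 865 and 455 in fenclorim and of 44.5, 42.0 and 31.4 in acetone. At 4 h AT1G60730 had 757, 671 and 769 in CMP, of 861, 1009.7 and 640.0 in fenclorim and of 33.3, 38.1 and 55.4 in acetone. Here too both compounds overlapped at each time, while acetone was well measured, above the 40th percentile on all its arrays. The differences from acetone were 3.89 in CMP and 3.91 in fenclorim at 24 h, and 4.15 in CMP and 4.32 in fenclorim at 4 h. CMP minus fenclorim was -0.01, with a 95% interval of -0.53 to 0.50 at 24 h, and -0.17, with a 95% interval of -0.68 to 0.34 at 4 h, so neither compound was shown to act more strongly on this gene.

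AT3G04000 encodes an NADPH-dependent aldehyde reductase of the short-chain dehydrogenase class, which removes reactive carbonyls. At 24 h the reductase had signals of 516, 745 and 702 in CMP, of 1349, 783 and 932 in fenclorim and of 40.9, 69.3 and 60.7 in acetone. At 4 h it had 1127, 957 and 774 in CMP, of 869, 795 and 1279.9 in fenclorim and of 54.6, 73.1 and 87.0 in acetone. At 24 h the fenclorim arrays lay above the CMP arrays, and at 4 h the compounds overlapped. The differences from acetone were 3.54 in CMP and 4.16 in fenclorim at 24 h, and 3.74 in CMP and 3.77 in fenclorim at 4 h. CMP minus fenclorim at 24 h was -0.62 ± 0.26 (adjusted p = 0.0775), which did not pass the test.

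GRX480, also known as ROXY19, is a CC-type glutaredoxin that binds TGA factors. Its arrays at 24 h read 104, 114 and 134 in CMP, of 96.0, 211 and 126 in fenclorim and of 23.4, 17.1 and 15.7 in acetone. Its arrays at 4 h read 111, 178 and 115 in CMP, of 372, 289 and 297 in fenclorim and of 15.9, 15.5 and 33.1 in acetone. The fenclorim arrays lay above the CMP arrays at 4 h and overlapped with them at 24 h. Berberine bridge enzyme-like proteins, a family of flavin oxidases, were represented by AT1G26390 and AT1G30700. AT1G26390 had signals at 24 h of 881, 1008 and 983 in CMP, of 194, 540.3 and 101 in fenclorim and of 36.6, 36.2 and 36.5 in acetone, and at 4 h of 542, 828 and 863 in CMP, of 1323, 886 and 144 in fenclorim and of 33.8, 21.4 and 10.6 in acetone. Replicate 3 of fenclorim at 4 h was far below the other arrays of its group. AT1G30700 had signals at 24 h of 835, 915 and 1226 in CMP, of 198, 504 and 348 in fenclorim and of 99.1, 75.8 and 37.7 in acetone, and at 4 h of 1357, 2176 and 1531 in CMP, of 974, 851 and 1195 in fenclorim and of 67.8, 51.2 and 71.3 in acetone. At both times its CMP arrays lay above its fenclorim arrays, but only the 24 h difference passed the test.

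The other named members of this role were AT5G05600, an oxygenase that hydroxylates jasmonate, AT5G64250, related to nitronate monooxygenases, and AT5G06730, a class III peroxidase of the cell wall. The differences of AT5G05600 from acetone were 2.84 in CMP and 2.50 in fenclorim at 24 h, and 3.06 in CMP and 3.26 in fenclorim at 4 h. AT5G64250 had signals at 24 h of 783, 661 and 608 in CMP, of 822, 1235 and 1228 in fenclorim and of 178, 111 and 141 in acetone, and at 4 h of 1278, 1548 and 1134 in CMP, of 2591, 2342 and 2561 in fenclorim and of 173, 167 and 190.2 in acetone. Fenclorim arrays were above CMP arrays at both times, and 4 h arrays above 24 h arrays within each compound. AT5G06730 had signals at 24 h of 194, 161 and 201 in CMP, of 56.7, 81.7 and 80.0 in fenclorim and of 11.4, 28.4 and 14.3 in acetone, and at 4 h of 57.9, 96.8 and 76.7 in CMP, of 101, 75.8 and 61.7 in fenclorim and of 15.2, 11.7 and 11.8 in acetone. It was highest in CMP at 24 h, where no array overlapped with any other group.

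Hydrolases, proteases and other enzymes made up 9 named members. AT1G68620 belongs to the carboxylesterase-like hydrolases of the alpha/beta fold. In CMP, fenclorim and acetone at 24 h its signals were 1127, 955 and 974 in CMP, of 481, 563 and 706 in fenclorim and of 17.9, 18.9 and 13.8 in acetone. The 4 h arrays had 730.1, 1457 and 739 in CMP, of 1254, 982 and 1033 in fenclorim and of 17.2, 25.0 and 25.6 in acetone. Acetone was far below both compounds, and CMP lay above fenclorim at 24 h but not at 4 h. Its differences from acetone were 5.93 in CMP and 5.11 in fenclorim at 24 h, and 5.38 in CMP and 5.61 in fenclorim at 4 h.

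SBT3.3 is a subtilase, a serine protease of the apoplast, known for its part in immune priming. The signals of SBT3.3 at 24 h were 629.5, 1012 and 865 in CMP, of 345, 276 and 284 in fenclorim and of 15.0, 19.4 and 13.5 in acetone. At 4 h SBT3.3 had 1407, 1221 and 1254 in CMP, of 711, 658 and 611 in fenclorim and of 2.40, 7.03 and 0.689 in acetone. CMP arrays lay above fenclorim arrays at both times. Differences from acetone were 5.70 in CMP and 4.25 in fenclorim at 24 h, and 9.16 in CMP and 8.18 in fenclorim at 4 h. Because all 6 acetone arrays were below the 40th percentile, the offset of 3.80 changed these to 5.39 in CMP and 3.95 in fenclorim at 24 h, and 7.60 in CMP and 6.63 in fenclorim at 4 h. SBT3.5, a subtilase that processes a pectin methylesterase, is encoded near SBT3.3 with 1 gene between them. For SBT3.5 the differences from acetone were 3.73 in CMP and 2.39 in fenclorim at 24 h, and 4.53 in CMP and 3.81 in fenclorim at 4 h. Its CMP arrays too lay above its fenclorim arrays at both times, but its 4 h difference of 0.72 ± 0.22 did not pass the test either.

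AT3G60420 belongs to the phosphoglycerate mutase family. Its signals at 24 h were 402, 733 and 499 in CMP, of 574, 465 and 489.8 in fenclorim and of 87.4, 14.3 and 17.5 in acetone. In the 4 h arrays AT3G60420 had 242, 172 and 195 in CMP, of 191, 240.4 and 159 in fenclorim and of 4.63, 11.0 and 0.792 in acetone. The compounds overlapped at both times, and replicate 1 of acetone at 24 h was well above the other acetone arrays. Its differences from acetone were 4.24 in CMP and 4.18 in fenclorim at 24 h, and 5.87 in CMP and 5.82 in fenclorim at 4 h, and 4.02 in CMP and 3.96 in fenclorim at 24 h, and 4.62 in CMP and 4.57 in fenclorim at 4 h with the offset. CMP minus fenclorim was 0.06, with a 95% interval of -1.45 to 1.56 at 24 h.

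SUFE2 activates cysteine desulfurase in the assembly of iron-sulfur clusters. SUFE2 signals at 24 h were 276, 299 and 322 in CMP, of 841, 403 and 775 in fenclorim and of 76.6, 51.1 and 47.9 in acetone. SUFE2 signals at 4 h were 639.8, 675 and 438 in CMP, of 1707, 1627 and 1696 in fenclorim and of 26.5, 48.8 and 60.3 in acetone. Fenclorim arrays lay above CMP arrays at both times, and 4 h arrays above 24 h arrays with either compound. AT5G24210 encodes a class 3 lipase. The lipase had signals at 24 h of 1639.5, 2084 and 1663 in CMP, of 344, 607 and 363 in fenclorim and of 111, 86.9 and 85.4 in acetone, and at 4 h of 1403, 1422 and 1802 in CMP, of 381, 364 and 327 in fenclorim and of 104, 48.1 and 17.1 in acetone. CMP arrays were clearly above fenclorim arrays at both times. The chitinase family gene AT1G02360, the strictosidine synthase-like AT1G74010 and the methyltransferase AT2G41380 had differences from acetone between 2.09 (AT1G02360, fenclorim at 24 h) and 4.10 (AT2G41380, fenclorim at 4 h).

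**Figure D2:**
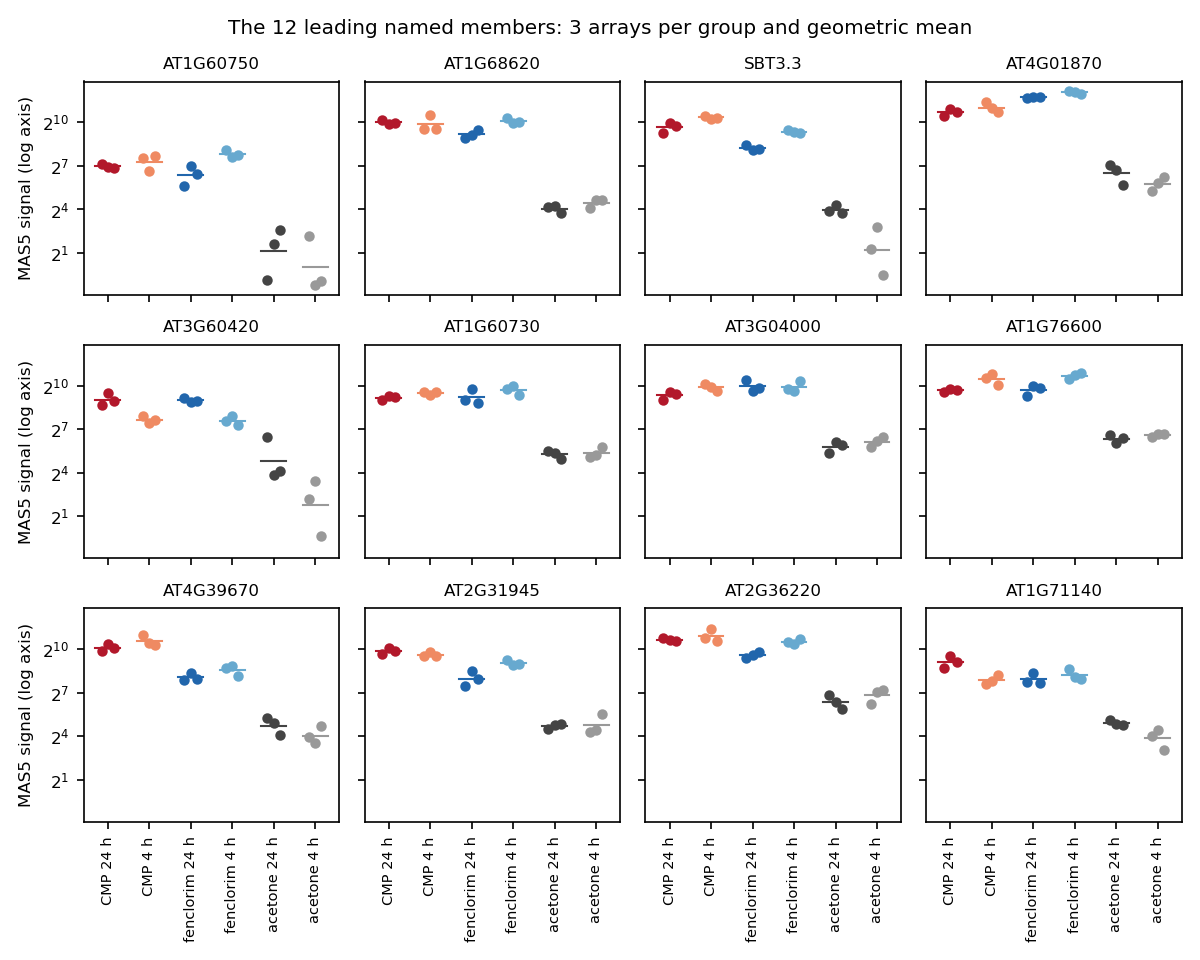
Each panel shows 1 of the 12 named members whose lowest difference from acetone was largest, with signal on a log y axis and the groups on the x axis. Points are single arrays and bars the geometric mean of 3. In all 12 panels the compound arrays lie above the acetone arrays of the same time, and the acetone points of AT1G60750, SBT3.3 and AT3G60420 spread widely near the lower end.

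Transporters and membrane proteins made up 7 named members. AT1G71140 is a MATE transporter, of the family that exports toxins and secondary compounds. The MATE gene had signals at 24 h of 405, 735 and 542 in CMP, of 211, 324 and 201 in fenclorim and of 34.3, 28.3 and 27.4 in acetone. At 4 h it had 194, 221 and 289 in CMP, of 387, 269 and 248 in fenclorim and of 16.3, 21.7 and 8.35 in acetone. CMP lay above fenclorim at 24 h, whereas both overlapped at 4 h. Differences of AT1G71140 from acetone were 4.19 in CMP and 3.00 in fenclorim at 24 h, and 4.01 in CMP and 4.37 in fenclorim at 4 h. AT4G39670 encodes a glycolipid transfer protein. Its signals at 24 h were 933, 1311 and 1057 in CMP, of 236, 322 and 239 in fenclorim and of 37.7, 29.8 and 16.6 in acetone, and at 4 h 1969, 1361 and 1238 in CMP, of 421, 456 and 285 in fenclorim and of 15.0, 11.4 and 25.4 in acetone. CMP arrays lay above fenclorim arrays at both times, and differences from acetone were 5.36 in CMP and 3.31 in fenclorim at 24 h, and 6.51 in CMP and 4.54 in fenclorim at 4 h.

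Small proteins with a cysteine-rich transmembrane module, linked to stress tolerance, were encoded by AT1G05340, AT1G56060 and AT2G32190. The shared probe set of AT2G32190 and AT2G32210 belongs to the same family, and 1 gene lies between those loci, so its signal is not independent of that of AT2G32190. AT2G32190 had signals at 24 h of 1607, 1899 and 1544 in CMP, of 383, 367 and 317 in fenclorim and of 51.3, 28.8 and 28.7 in acetone, and at 4 h of 1168, 957 and 682 in CMP, of 138, 170.0 and 212 in fenclorim and of 23.9, 34.3 and 24.9 in acetone. CMP arrays exceeded fenclorim arrays at both times, and 24 h arrays exceeded 4 h arrays in both compounds. AT1G56060 had signals at 24 h of 795, 1002 and 928 in CMP, of 322, 159 and 284 in fenclorim and of 70.0, 49.1 and 51.3 in acetone, and at 4 h of 1855, 1716 and 1442 in CMP, of 250.1, 245 and 263 in fenclorim and of 27.1, 53.5 and 24.9 in acetone. It too was higher in CMP arrays than in fenclorim arrays of the same time. AT5G13200, a GRAM domain protein, had signals at 24 h of 831, 957 and 860.2 in CMP, of 311, 332 and 311 in fenclorim and of 73.7, 60.0 and 52.5 in acetone, and at 4 h of 956, 915 and 933 in CMP, of 287, 251 and 373 in fenclorim and of 52.4, 56.9 and 66.4 in acetone. Arrays within a group lay close together, and CMP was above fenclorim at both times.

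AT1G65690, or NHL6, is a membrane protein of the NDR1/HIN1-like family. NHL6 had signals at 24 h of 481, 493 and 522 in CMP, of 171, 244 and 193 in fenclorim and of 48.2, 31.9 and 52.6 in acetone, and at 4 h of 351, 487 and 505 in CMP, of 507, 387 and 433 in fenclorim and of 52.7, 54.8 and 35.5 in acetone. It was lower in fenclorim at 24 h than in any other treated group, and the remaining treated groups overlapped in part.

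Genes of mitochondrial and protein stress and of related responses gave 5 named members. AT2G41730 is a small gene induced by low oxygen and by mitochondrial dysfunction, and its probe set shares probes with other sequences. Its signals at 24 h were 213, 190.3 and 189 in CMP, of 126, 873 and 182 in fenclorim and of 38.7, 40.4 and 55.2 in acetone, and at 4 h 2500.4, 4279 and 2427 in CMP, of 805, 919 and 1266 in fenclorim and of 48.5, 39.1 and 32.5 in acetone. CMP at 4 h was above all other groups, and replicate 2 of fenclorim at 24 h lay among the values of that compound at 4 h. AT2G29500 encodes a class I small heat shock protein, a chaperone that holds unfolding proteins. The small heat shock gene had signals at 24 h of 155, 175 and 109.9 in CMP, of 77.0, 300.0 and 86.7 in fenclorim and of 48.0, 13.3 and 17.2 in acetone, and at 4 h of 1349.5, 599 and 703 in CMP, of 410.0, 296 and 463 in fenclorim and of 17.8, 26.3 and 12.3 in acetone. Again CMP at 4 h was above all other groups.

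AT4G01870, a TolB-related protein induced by electrophiles, had signals at 24 h of 1369.8, 1939 and 1699 in CMP, of 3319, 3415 and 3396 in fenclorim and of 135, 104 and 51.8 in acetone. In the 4 h arrays it had 2673, 1986 and 1660.2 in CMP, of 4515, 4309 and 3945 in fenclorim and of 37.8, 56.0 and 75.1 in acetone. Fenclorim arrays lay above CMP arrays at both times, and the differences from acetone were 4.20 in CMP and 5.23 in fenclorim at 24 h, and 5.25 in CMP and 6.29 in fenclorim at 4 h. AT5G61820, related to the Nod19 proteins, had signals at 24 h of 1152, 1197 and 1096 in CMP, of 2713, 2974 and 3057 in fenclorim and of 297, 204 and 198 in acetone, and at 4 h of 2139, 1686 and 1494 in CMP, of 2997, 2788 and 3139 in fenclorim and of 284, 242 and 258 in acetone. It followed the same order, with fenclorim above CMP. AT1G21670, with a DPP6 domain, had differences from acetone of 2.80 in CMP and 2.36 in fenclorim at 24 h, and 3.39 in CMP and 2.50 in fenclorim at 4 h.

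Signalling and transcription gave 6 named members. AT1G76600 encodes a PADRE domain protein of stress and defence. AT1G76600 had signals at 24 h of 768, 873 and 831 in CMP, of 615, 983 and 898 in fenclorim and of 96.4, 65.0 and 84.5 in acetone, and at 4 h of 1493, 1772 and 1034 in CMP, of 1392, 1731 and 1851 in fenclorim and of 87.7, 102 and 102 in acetone. The compounds overlapped at both times, and 4 h arrays lay above 24 h arrays in each. Its differences from acetone were 3.35 in CMP and 3.33 in fenclorim at 24 h, and 3.85 in CMP and 4.09 in fenclorim at 4 h. AT2G47890 encodes a B-box transcription factor. The B-box gene had signals at 24 h of 70.0, 74.6 and 66.5 in CMP, of 102, 156 and 165 in fenclorim and of 24.9, 17.6 and 7.93 in acetone, and at 4 h of 185, 253 and 124 in CMP, of 293, 327 and 581 in fenclorim and of 35.2, 26.2 and 46.0 in acetone. Fenclorim arrays lay above CMP arrays at both times, but the difference between the compounds passed the test at neither time. The others were AT1G57630 with a TIR domain, AT3G26470 with an RPW8 domain, and the RING proteins AT1G63840 and AT1G08050. Their differences from acetone ran between 2.03 (AT1G63840, fenclorim at 24 h) and 5.69 (AT1G57630, CMP at 4 h).

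The remaining 10 named members have no role stated here, apart from the germin-like AT1G18980 and AT4G17215 of the Ole e 1 and extensin family. AT2G36220 had signals at 24 h of 1695, 1562 and 1514 in CMP, of 655, 769 and 887 in fenclorim and of 113, 80.0 and 57.5 in acetone, and at 4 h of 1716, 2611 and 1507 in CMP, of 1394, 1325 and 1655 in fenclorim and of 74.1, 129 and 145 in acetone. CMP was above fenclorim at 24 h only. AT2G31945 had signals at 24 h of 787, 1068 and 943 in CMP, of 176, 351 and 247 in fenclorim and of 22.6, 26.6 and 28.6 in acetone, and at 4 h of 720.3, 870.2 and 739 in CMP, of 618, 481 and 491 in fenclorim and of 19.5, 21.4 and 46.1 in acetone. CMP was above fenclorim at both times, by more at 24 h, but only the 24 h difference passed the test. Differences from acetone were 4.30 in CMP and 3.25 in fenclorim at 24 h, and 4.08 in CMP and 3.70 in fenclorim at 4 h for AT2G36220. For AT2G31945 they were 5.16 in CMP and 3.26 in fenclorim at 24 h, and 4.85 in CMP and 4.30 in fenclorim at 4 h.

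AT2G47950 had signals at 24 h of 649, 605 and 562 in CMP, of 61.3, 92.4 and 105 in fenclorim and of 9.42, 11.3 and 11.6 in acetone, and at 4 h of 566, 496 and 513 in CMP, of 117, 44.4 and 146 in fenclorim and of 10.1, 2.93 and 14.6 in acetone. Its fenclorim arrays lay between acetone and CMP without overlap at either time. AT1G70420 had signals at 24 h of 191, 156 and 171 in CMP, of 51.5, 123 and 50.0 in fenclorim and of 19.6, 15.6 and 15.7 in acetone, and at 4 h of 278, 407 and 274 in CMP, of 211, 251 and 217 in fenclorim and of 9.50, 13.6 and 19.7 in acetone. It was the named member nearest to the threshold, through fenclorim at 24 h. AT5G40690 had signals at 24 h of 285, 293 and 294 in CMP, of 145, 316 and 216 in fenclorim and of 63.7, 43.9 and 26.6 in acetone, and at 4 h of 806, 1298 and 703 in CMP, of 285, 317 and 523 in fenclorim and of 36.1, 42.5 and 57.3 in acetone. AT3G27880 had signals at 24 h of 388, 357 and 342 in CMP, of 178, 434 and 259 in fenclorim and of 47.1, 46.6 and 56.4 in acetone, and at 4 h of 694, 1136 and 513 in CMP, of 556, 526 and 598 in fenclorim and of 47.9, 57.5 and 55.1 in acetone. Both were higher at 4 h than at 24 h in all CMP arrays. AT4G17215 had differences from acetone of 2.11 in CMP and 2.64 in fenclorim at 24 h, and 3.12 in CMP and 2.59 in fenclorim at 4 h. AT1G19020 and AT3G18250 completed this group, with differences from acetone of 2.29 (AT3G18250, fenclorim at 24 h) to 4.17 (AT1G19020, CMP at 4 h).

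The comparison of CMP with fenclorim was not itself used to choose the members, and it was tested with limma over all 15261 probe sets. The rule did use the means of both compounds, and it took probe sets that were bright and raised in both. Shares of members called are set beside a table that also holds dim and unchanged probe sets, and probe sets of like level were not compared. The same holds for the comparisons of times below. Tested differences are given on the log2 scale as the difference ± its SE, with n = 3 arrays in each group. At 24 h, 37 of the 92 members (40.2%) rose in CMP over fenclorim and 10 (10.9%) fell, at an adjusted p under 0.05, while of all tested probe sets 30.9% were called, 17.2% higher and 13.7% lower. At 4 h, 13 members (14.1%) rose and 11 (12.0%) fell, against 3.56% and 3.77% of all tested probe sets, 7.33% in all. The median difference of the members was 0.61 at 24 h and 0.08 at 4 h, and over all tested probe sets it was 0.09 and 0.02. With the arrays centred on their medians, 31 members rose and 14 fell at 24 h, while of all tested probe sets 11.6% rose and 21.0% fell. The calls over all probe sets were then 35.5% higher, in place of 55.7%. Without the 3 arrays that lay apart from their groups, 39 members rose and 11 fell at 24 h (54.3% called, against 47.8% of all tested probe sets), and 15 rose and 12 fell at 4 h (29.3%, against 11.9%). At 24 h the members' share thus lay nearer to that of the whole table than with all arrays, where it was 51.1% against 30.9%.

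Of the named members, 23 rose and 4 fell in CMP over fenclorim at 24 h. AT2G47950 showed the largest named difference, at 2.85 ± 0.46 (adjusted p = 0.000427), followed by the cysteine-rich AT2G32190 at 2.24 ± 0.24 (adjusted p = 1.84e-05). The oxidase AT1G26390 rose by 2.12 ± 0.66 (adjusted p = 0.0231), the lipase AT5G24210 by 2.08 ± 0.42 (adjusted p = 0.00184) and the glycolipid transfer protein AT4G39670 by 2.05 ± 0.31 (adjusted p = 0.000274). The AT1G26390 call was lost when any 1 of 5 arrays was left out, among them replicate 3 of fenclorim at 24 h, where the difference was 1.56 (adjusted p = 0.114). Lower in CMP at 24 h were AT5G61820 at -1.34 ± 0.16 (adjusted p = 3.11e-05), SUFE2 at -1.10 ± 0.30 (adjusted p = 0.0116), AT4G01870 at -1.03 ± 0.29 (adjusted p = 0.0146) and AT5G64250 at -0.66 ± 0.19 (adjusted p = 0.0148). SUFE2 was not called without replicate 1 or 3 of fenclorim at 24 h (adjusted p = 0.0627 and 0.0501), nor AT5G64250 without replicate 3 of fenclorim or of CMP (0.063 and 0.062) or with only the groups compared (0.0561). AT4G01870 was not called with quantile normalization (adjusted p = 0.128) or without replicate 1 of CMP at 24 h (0.0641).

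At 4 h, 9 named members rose and 5 fell in CMP over fenclorim. The largest rise was that of AT1G56060, at 2.72 ± 0.27 (adjusted p = 1.48e-05), and AT2G47950 rose by 2.52 ± 0.46 (adjusted p = 0.00287). AT2G32190 rose by 2.42 ± 0.24 (adjusted p = 1.48e-05), AT5G24210 by 2.1 ± 0.42 (adjusted p = 0.00475) and AT4G39670 by 1.97 ± 0.31 (adjusted p = 0.000922). Those that fell were SUFE2 at -1.55 ± 0.30 (adjusted p = 0.00393), the glutaredoxin GRX480 at -1.27 ± 0.31 (adjusted p = 0.0176), AT4G01870 at -1.04 ± 0.29 (adjusted p = 0.0375), AT5G64250 at -0.93 ± 0.19 (adjusted p = 0.00539) and AT5G61820 at -0.76 ± 0.16 (adjusted p = 0.0064). The GRX480 call was lost without replicate 1 of fenclorim at 4 h (adjusted p = 0.0748), replicate 1 of CMP at 4 h (0.0879) or replicate 3 of CMP at 4 h (0.0794). That of AT4G01870 was lost with quantile normalization (adjusted p = 0.0612), without the intensity trend (0.0559), without any single fenclorim array at 4 h (0.0551 to 0.115) and without replicate 2 or 3 of CMP at 4 h (0.0772 and 0.16). It was lost also without replicate 3 of CMP at 24 h (0.0512) and without the 3 arrays that lay apart (0.0841).

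At both times 12 members (13.0%) rose in CMP over fenclorim and 8 (8.70%) fell, against 2.08% and 2.18% of all tested probe sets, and no member rose at one time and fell at the other. The named ones among the 12 were the membrane genes AT1G56060, AT2G32190, AT4G39670 and AT5G13200, the enzymes AT1G74010 and AT5G24210, the TIR gene AT1G57630, and AT2G47950. Those among the 8 were AT4G01870, AT5G61820, AT5G64250 and SUFE2. The differences at 4 h and at 24 h come from separate arrays. Both tests took their error from the same fit over all groups, so the calls at each time are not independent. By role, 6 of 7 transport and membrane members, 6 of 9 hydrolases and other enzymes, 6 of the 10 remaining genes, 3 of 9 of oxidation and reduction and 2 of 6 of signalling rose at 24 h, where 17.2% of all tested probe sets did. At 4 h these were 4, 2, 2, 0 and 1, where 3.56% of all did. Among them 1 of oxidation and reduction and 1 other enzyme fell at 24 h, and 2 and 1 at 4 h. In the stress group none rose, and AT4G01870 and AT5G61820 fell at each time, while AT2G41730 and the small heat shock gene AT2G29500 were called at neither. These groups are small and were drawn up with the results known, so the counts are a description.

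For 41 members (44.6%), 17 of them named, neither comparison passed the test, as for 66.2% of all tested probe sets. Both aldo-keto reductases were among them, with AT1G60750 at 0.62, with a 95% interval of -1.06 to 2.31 at 24 h. The small heat shock gene AT2G29500 differed by 0.19, with a 95% interval of -0.88 to 1.26 at 24 h and 1.11, with a 95% interval of 0.04 to 2.19 at 4 h. AT1G76600 differed by 0.01, with a 95% interval of -0.43 to 0.46 at 24 h. These intervals held differences of both signs, except that of AT2G29500 at 4 h, which lay above 0 although its adjusted p missed the threshold.

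**Figure D3:**
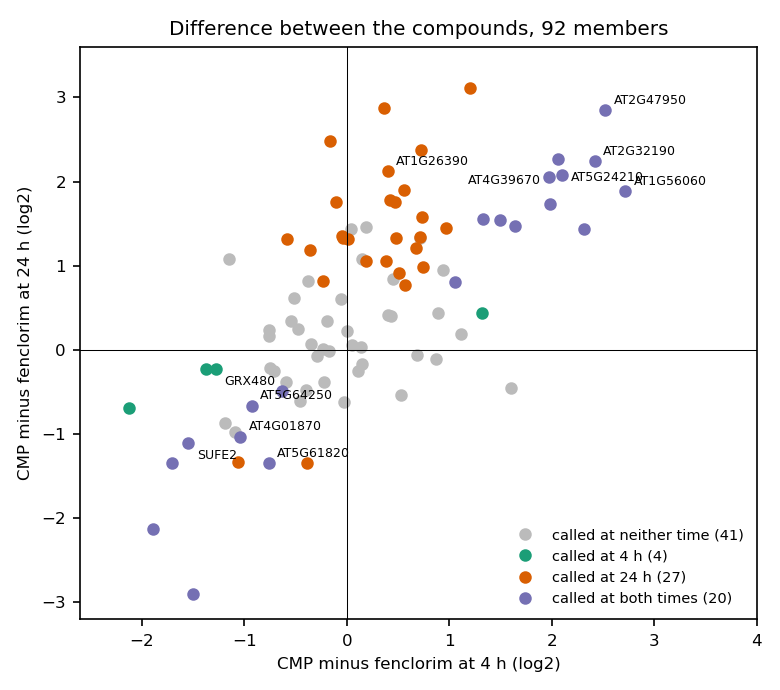
Each point is 1 of the 92 members, with CMP minus fenclorim at 4 h on the x axis and at 24 h on the y axis, both as differences of mean log2 signal, and colours mark the calls. Members called at both times lie in the upper right (12) or lower left (8) quadrant, and 0 lie in the others.

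Times were compared within each treatment, where all arrays belong to the same compound or solvent. No probe set of the array was called at 24 h against 4 h in acetone by limma, so the share called was 0%. At an unadjusted p under 0.05, 21 members were higher and 1 lower. The largest named difference among them was that of AT3G60420, at 3.03 ± 0.71, adjusted p = 0.371. The share of all tested probe sets at that unadjusted cut was not counted, and the acetone means entered the rule, so these counts are a description. In fenclorim, 3 members (3.26%) rose and 23 (25.0%) fell at 24 h against 4 h, and of all tested probe sets 9.47% were called, 4.57% higher and 4.89% lower. In CMP, 7 members (7.61%) rose and 16 (17.4%) fell, against 5.34% and 6.51% of all tested probe sets, 11.9% in all. The median difference of the members was -0.64 in fenclorim and -0.25 in CMP, and 0.23 in acetone. Leaving out replicate 2 of fenclorim at 24 h raised the fallen members to 38 in fenclorim, where 22.4% of all tested probe sets were called. Leaving out replicate 2 of fenclorim at 4 h lowered them to 12, where 4.02% of all were called. With only the arrays of the groups compared in the fit, 1 member rose and 5 fell in fenclorim, and 12 rose and 27 fell in CMP. In that fit 0.76% of all tested probe sets were called in fenclorim and 17.1% in CMP. Without the 3 arrays that lay apart, 39 members fell and 3 rose in fenclorim, and 14 fell and 8 rose in CMP, while 35.4% and 14.3% of all tested probe sets were called. The fenclorim arrays among them are those near the arrays of the other time on the second component.

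In CMP the fall was largest in AT2G41730, at -3.91 ± 0.48 (adjusted p = 0.000133), and in the small heat shock gene AT2G29500, at -2.53 ± 0.51 (adjusted p = 0.00384). AT5G40690 fell by -1.64 ± 0.34 (adjusted p = 0.00432), the B-box gene AT2G47890 by -1.35 ± 0.37 (adjusted p = 0.026) and AT3G27880 by -1.03 ± 0.28 (adjusted p = 0.0208). Higher at 24 h in CMP were the peroxidase AT5G06730, by 1.29 ± 0.30 (adjusted p = 0.00939), the MATE transporter AT1G71140, by 1.23 ± 0.31 (adjusted p = 0.0156), and AT2G32190, by 0.88 ± 0.24 (adjusted p = 0.0266). The calls of AT2G47890, AT3G27880, AT1G71140 and AT2G32190 in CMP were each lost when single CMP arrays were left out, with adjusted p-values of up to 0.117, 0.113, 0.0825 and 0.104 in that order. Median centring ended the AT2G32190 call (adjusted p = 0.0928), and leaving out the 3 arrays apart that of AT2G47890 (0.0669). Without replicate 1 of CMP at 4 h the AT5G06730 call was lost as well (adjusted p = 0.0575).

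In fenclorim AT2G41730 fell by -1.85 ± 0.48 (adjusted p = 0.0229), AT1G70420 by -1.73 ± 0.31 (adjusted p = 0.0028) and the oxidase AT1G30700 by -1.61 ± 0.34 (adjusted p = 0.00759). AT2G47890 fell by -1.47 ± 0.37 (adjusted p = 0.022) and SUFE2 by -1.39 ± 0.30 (adjusted p = 0.00863). The 1 named member that rose was AT2G32190, by 1.05 ± 0.24 (adjusted p = 0.013). AT2G41730 was no longer called without any single fenclorim array other than replicate 2 at 24 h (adjusted p = 0.0525 to 0.124), and AT2G47890 was not without 3 of them (0.0508 to 0.106). In AT2G32190 the call was lost without replicate 1 of fenclorim at 4 h (adjusted p = 0.0759) and without replicate 1 at 24 h (0.0541). With only the fenclorim arrays in the fit, none of these 6 calls held, at adjusted p-values of 0.0726 to 0.22.

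With both compounds, 9 members (9.78%) fell at 24 h against 4 h, against 1.28% of all tested probe sets, and 6 of them are named: AT1G76600, AT2G41730, AT2G47890, AT3G27880, AT5G64250 and SUFE2. Those that rose with both were AT2G32190 and the probe set it shares with AT2G32210, and 0.930% of all tested probe sets did. In group means every one of these members still exceeded acetone by 2 or more at 24 h, as the rule demanded. For AT2G41730 the fenclorim mean at 24 h was raised by replicate 2, which lay apart from its group. Without that array 77 probe sets met the rule, 76 of them among the members described here. Among the members that then no longer met it were AT2G41730, the small heat shock gene AT2G29500, AT1G26390 and AT1G70420. Their place in the set thus rests on that array.

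**Figure D4:**
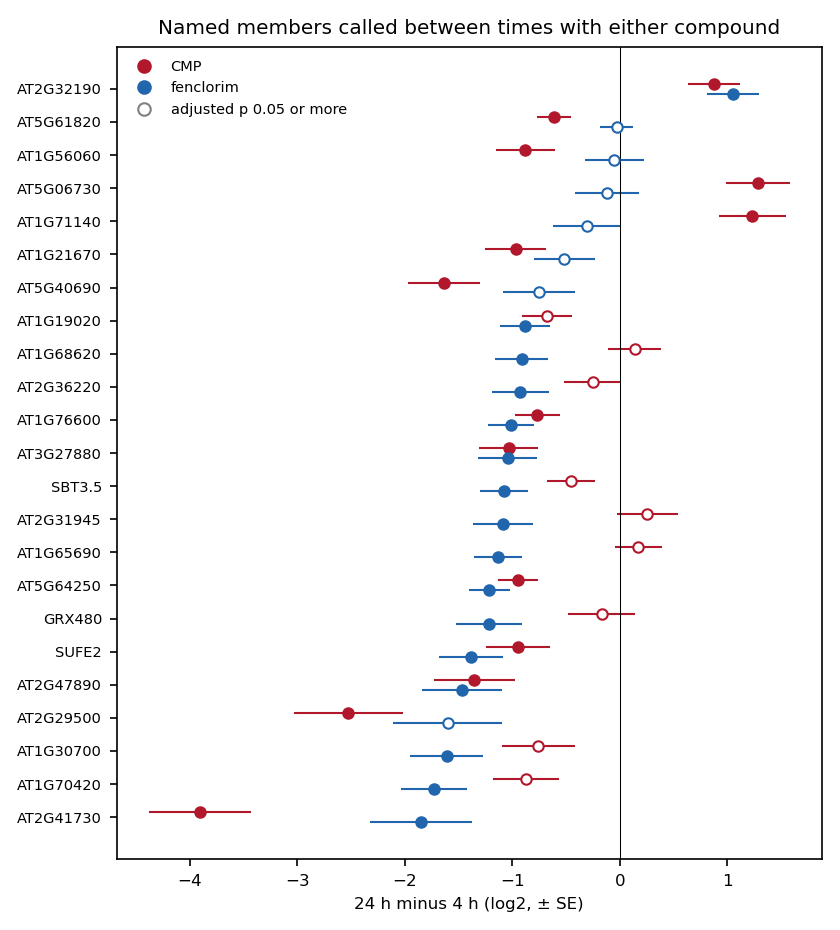
Each line down the page is a named member called between the times with either compound, and the x axis gives 24 h minus 4 h as a difference of mean log2 signal ± SE, in red for CMP and blue for fenclorim, with open points for an adjusted p of 0.05 or more. Filled points right of 0 belong to AT2G32190 with both compounds and to AT5G06730 and AT1G71140 with CMP, and AT2G41730 lies farthest left, at -3.91 in CMP and -1.85 in fenclorim.

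Whether the difference between the compounds changed from 4 h to 24 h was tested as an interaction. By limma 5 members (5.43%) were called higher and 0 lower, against 1.82% and 3.09% of all tested probe sets, 4.91% in all. At an unadjusted p under 0.05 these were 17 and 6 members, and the share of the whole table at that cut was not counted. The named one among the 5 called was AT1G65690, at 1.31 ± 0.31 (adjusted p = 0.0262). CMP minus fenclorim was 1.31 ± 0.22 at 24 h and 0.01 ± 0.22 at 4 h in this gene. Its call did not hold when any 1 of 7 arrays was left out, with adjusted p-values of 0.0503 to 0.0865. The count itself ranged between 1 and 17 members with single arrays left out, with 17 reached without replicate 2 of fenclorim at 24 h, and was 25 without the 3 arrays that lay apart, where 25.8% of all tested probe sets were called.

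Families of the members were followed among the genes that the rule did not take, again with limma over the whole table. Against acetone, 17.3% of tested probe sets rose and 25.7% fell with CMP at 24 h, 14.2% and 27.7% with fenclorim at 24 h, 13.8% and 23.3% with CMP at 4 h, and 14.4% and 25.0% with fenclorim at 4 h. Of the targets of electrophiles and TGA factors, the members were AT4G01870 and AT3G04000, and both others that were tested rose in all 4 cases. These were GSTU25, a glutathione transferase, by 1.63 ± 0.57 with CMP at 24 h (adjusted p = 0.0281), and AER, an alkenal reductase, by 1.37 ± 0.31 (adjusted p = 0.0017). UGT73B4 and UGT73B5, left out by symbol, are on that list as well.

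Of the mitochondrial dysfunction genes, AT2G41730 was the member and 4 others were tested. As given above, AT2G41730 met the rule only with replicate 2 of fenclorim at 24 h. All 4 rose at 4 h with each compound, the NAD(P)H dehydrogenase NDB2 by 2.97 ± 0.26 with CMP (adjusted p = 1.76e-07) and 3.80 ± 0.26 with fenclorim (adjusted p = 1.24e-08). At 24 h 1 of the 4 rose with CMP and 2 with fenclorim, and 3 with each when the arrays were centred on their medians. NDB2 was called in both, by 1.05 ± 0.26 with CMP (adjusted p = 0.00334) and 1.81 ± 0.26 with fenclorim (adjusted p = 6.5e-05). AT5G51440, a mitochondrial small heat shock protein, rose by 4.56 ± 0.41 with CMP (adjusted p = 2.68e-07) and 3.56 ± 0.41 with fenclorim (adjusted p = 5.05e-06) at 4 h. At 24 h its differences were 0.77 ± 0.41 with CMP (adjusted p = 0.147) and 0.95 ± 0.41 with fenclorim (adjusted p = 0.072).

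Relatives of the aldo-keto reductase and subtilase pairs were also tested. Of 4 other aldo-keto reductases tested, none rose under the authors' scaling, and 2 fell with CMP at 24 h, 1 with fenclorim at 24 h, and 2 with each compound at 4 h. ATB2 (AT1G60710) fell by 1.20 with CMP at 24 h (adjusted p = 4.18e-05) and fell by 1.44 at 4 h (adjusted p = 8.38e-06). After centring, 1 of these 4 rose and 1 fell with CMP at 24 h, none was called with fenclorim at 24 h and 1 fell with each compound at 4 h. Of 4 other subtilases none rose under the authors' scaling, after centring or after quantile normalization, and SBT4.12 differed by -1.46 ± 0.41 with CMP at 24 h (adjusted p = 0.00835).

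Broader enzyme families showed calls both ways among the named genes tested. Probe sets without a name could not enter these lists, so unnamed members may belong to these families. Of 11 cytochromes P450 tested, none a member, 3 rose and 4 fell with CMP at 24 h, 1 and 4 with fenclorim at 24 h, 3 and 2 with CMP at 4 h, and 3 and 1 with fenclorim at 4 h. Of 10 glutathione transferases, 1 rose and 2 fell with CMP at 24 h, 3 and 3 with fenclorim at 24 h, and 3 and 4 with each compound at 4 h. Of 11 beta-glucosidases, 3 rose and 3 fell with CMP at 24 h, 1 and 5 with fenclorim at 24 h, 1 and 2 with CMP at 4 h, and 3 and 4 with fenclorim at 4 h. These counts moved with the scaling: with the arrays centred, glutathione transferases with fenclorim at 24 h were 5 higher and 0 lower, cytochromes P450 2 and 1, and beta-glucosidases 1 and 3. With CMP at 24 h the centred counts were 3 and 1, 4 and 2, and 4 and 1 in that order of families. At 4 h the lower calls after centring were 0 to 2 with CMP and 1 to 3 with fenclorim.

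**Figure D5:**
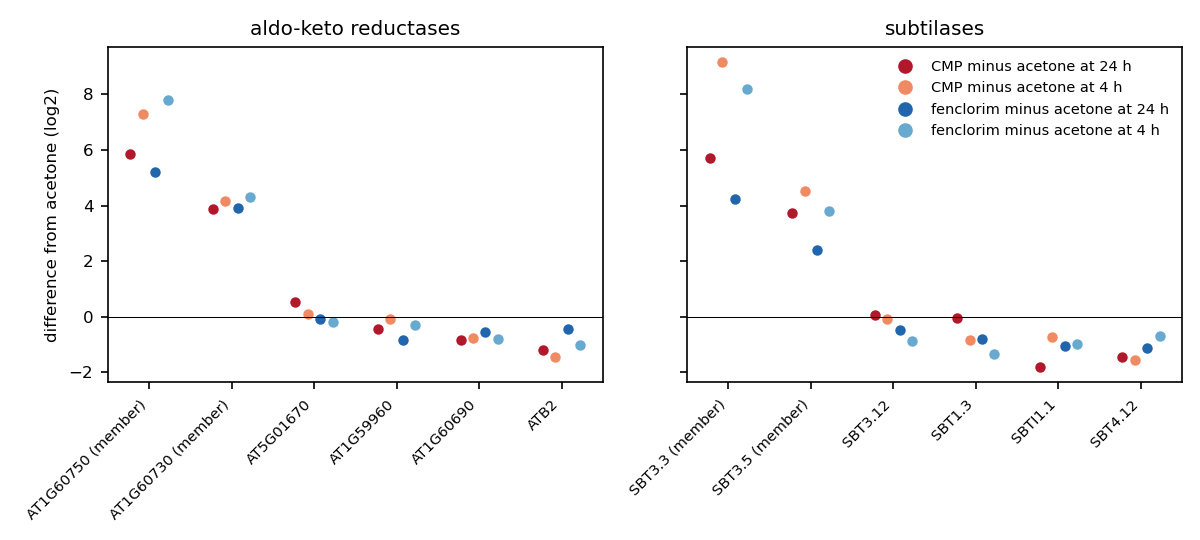
Differences of mean log2 signal from acetone are given on the y axis for 6 aldo-keto reductases and 6 subtilases, members beside the other tested genes, with 1 point for each compound and time. All 4 members lie above 2, as the rule demands, and the other 8 genes lie between -1.81 and 0.55.

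Just inside the threshold of 2 were an unnamed probe set with a lowest difference of 2.00, AT1G70420 with 2.02 and AT1G63840 with 2.03. Just outside were 2 unnamed probe sets, both with 1.98, and AT5G59490 with 1.96. Another 108 probe sets met the level and 3 of the 4 differences, and 51 met the differences but not the level of 6, among them MMP with a lowest treated mean of 5.90. The edge of the set is therefore not marked by a gap in the values. On the chromosomes, 5 pairs of loci of the members lay within 10 genes of each other: the pairs named above, AT1G18980 with AT1G19020 at 3 genes between, and AT2G47890 with AT2G47950 at 6. In the pair of AT2G32190 and AT2G32210, the latter entered only through the probe set that both share.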

How the data were processed

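Total RNA was labelled with biotin by a 3′ protocol and hybridised to ATH1 arrays, per the labels. The authors made intensity values, linear and not logged, with MAS5 in GCOS, per the submitters' processing notes, and the deposited columns hold these. The software version is not given in the sources used here, and detection calls were not used. The means after trimming 2% at either end were 100.01 on every array, so the authors' scaling was kept, and signals of 0.0102 to 8886 were transformed to log2. Of 22810 probe sets, 64 controls were left out. Tests covered the 15261 probe sets whose signal exceeded the array's own 40th percentile on 3 or more arrays, all 92 members among them. One mean per group was fitted to 18 arrays with limma 3.58.1 in R 4.3.3, with an intensity trend, and Benjamini-Hochberg adjustment ran over these 15261 probe sets, with calls under an adjusted p of 0.05. The script was tested on simulated data.

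Names came from the platform annotation, which gives 1 gene for 13513 probe sets, several for 503 and none for 8730, and all 46 named members matched a RefSeq locus. Where a listed gene had several probe sets, the brightest was used. The cyclophilin CYP71 was kept out of the cytochrome P450 list. The members, lists and role groups were chosen with earlier results of these data known. The rule for named genes took the 12 named members with the largest lowest difference, the 5 largest named calls each way in each tested contrast, the probe sets nearest to the threshold, list members and chromosomal neighbours. Sequences were not analysed here, nor were lists that matched no tested gene by locus or by the start of its symbol. These were TGA, ethylene response and heat shock genes, peroxide enzymes, and ABC and MATE transporters. Genes of such kinds that carry only a locus name, such as AT1G71140 and AT2G29500, were not matched by the lists that went by symbol.

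Replicate numbers were not taken as pairs, since the deviations of same-numbered arrays correlated at -0.51 to 0.48 (median -0.05 over 45 pairs), and those of differently numbered arrays had a median of 0.02 over 90 pairs. Alternatives were 2 scalings, 2 offsets, 2 filters, a fit of only the groups compared, a replicate block, no intensity trend and each array left out in turn. The larger offset and the joint removal of 3 arrays were chosen after the data were seen. Tables were made with pandas 2.3.3 and numpy 2.4.6 and figures with matplotlib 3.10.9, all in Python 3.11.15. Only 3 arrays per group limit the precision.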

Additional observations from a re-analysis of the deposited data

Results flagged for a closer look

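The difference between the compounds changed between the times in AT1G65690 (NHL6), by 1.31 ± 0.31 on the log2 scale in the interaction test of limma (adjusted p = 0.0262). CMP exceeded fenclorim on all arrays at 24 h and the compounds overlapped at 4 h. That call was lost when any 1 of 7 arrays was left out (adjusted p = 0.0503 to 0.0865) and with the replicate block (0.0504). Over the members, 5 (5.43%) were called in that test, all toward a higher CMP signal at 24 h, and 4.91% of all tested probe sets were called, so the shares are near each other. The part of fenclorim at 24 h replicate 2 in these calls was measured: without it 17 members were called higher and 4 lower, and 19.8% of all tested probe sets were called.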

How the results depend on the processing

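For the 34 named calls followed (up to 5 of the largest each way in each contrast), 882 of 952 alternative values stayed on the same side of the threshold, 70 lost the call and none changed sign; weaker calls were not followed. Members by the rule numbered 167 after median centring (all 92 among them), 114 after quantile normalization (90 shared), 81 with the larger offset (81 shared), 73 without the 3 arrays apart (72 shared) and 77 to 103 with single arrays left out. Median centring gave 17 higher and 8 lower list genes with CMP at 24 h (10 and 15 before) and 14 and 4 with fenclorim at 24 h (9 and 17), 5 lower with CMP at 4 h and 8 with fenclorim at 4 h (15 each), and 1 member lower in the interaction. Centring also made 29.6% of all calls in CMP over time higher, in place of 45.1%, and 26.9% of those in the interaction, in place of 37.1%.

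With only the groups compared, 2799 probe sets were called between the compounds at 24 h (4714 with all arrays), 354 in the interaction (750) and 116 in fenclorim over time (1445). That fit had 1 member lower in the interaction. In CMP over time it had 12 members higher and 27 lower, where 17.1% of all tested probe sets were called, and in fenclorim over time 1 higher and 5 lower. List genes in that fit were 16 higher with CMP at 24 h and 8 lower with fenclorim at 24 h. Arrays with the same replicate number did not deviate together: their deviations from the group means correlated at a median of -0.05 over 45 pairs, of which 12 were over 0.1, against 0.02 over 90 pairs of unlike numbers. The replicate block left 3 members higher and 433 probe sets called in the interaction, and called 1 member and 3 probe sets in acetone over time. It also left AT1G65690 at an adjusted p of 0.0504 and AT4G01870 at 0.0552 at 4 h. No trend gave 3 members higher in the interaction, and the larger offset 9 higher and 1 lower. Without the 3 arrays apart, 7295 probe sets were called between the compounds at 24 h, 1823 at 4 h (1118), 3930 in the interaction, 5 in acetone and 5402 in fenclorim over time, with 25 members higher and 3 lower in the interaction and 39 lower in fenclorim over time. The causes were not tested.

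With single arrays left out, between the compounds 27 to 39 members were higher and 8 to 11 lower at 24 h, and 11 to 18 higher and 5 to 12 lower at 4 h, among 2882 to 6579 and 587 to 1456 probe sets. In the interaction 1 to 17 were higher and 0 to 4 lower (211 to 3019 probe sets). Over time 1 to 4 were higher and 12 to 38 lower in fenclorim (590 to 3414), 2 to 9 higher and 8 to 18 lower in CMP (1011 to 2445), and 0 to 2 higher in acetone (0 to 10). List genes lower with fenclorim at 24 h were 9 to 20. Signals near the lower end of the arrays limit the sizes of differences from acetone, as in the 15 members below the 40th percentile on every acetone array.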
